A study of Mus musculus with 6 samples.

Results

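Kinesins are motor proteins that walk along or dismantle microtubules, and their genes were examined as one superfamily in the transcriptome of HT22 cells, an immortalized line derived from mouse hippocampal neurons. Members were every symbol of the deposited expression table that starts with Kif, Kifc or Klc followed by a digit, which gave 46 of 21878 symbols. They comprised 12 mitotic kinesins, 14 cargo transport kinesins, 4 kinesin light chains, 15 further kinesins and Kif1bp, which encodes the KIF binding protein and is no motor. RNA came from the input fraction of an m6A immunoprecipitation experiment with 3 libraries of control cells, labelled C1 to C3, and 3 libraries labelled M1 to M3. The labels do not spell out the letter M, and these libraries were taken as the Al group, cells exposed to 120 µM aluminum maltolate, because the study's supplement gives the same comparison under either name. The study's general treatment lasted 24 h, and its sequencing methods give no length of their own. Both groups were the same line, with no engineered allele named in the labels. The study lists a medium-only control apart from a maltol control and calls the sequenced group control. Its sequencing methods do not say outright which of them was sequenced. The study describes the libraries of a group as biological replicates, and the labels do not say which cultures they came from, so that p-values measure the spread between these libraries.

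Every conventional kinesin carries a motor domain that hydrolyses ATP and binds microtubules, joined to a tail that selects a cargo or a partner. Transport kinesins move vesicles, endosomes, mitochondria and intraflagellar particles toward microtubule plus ends, which in neurons means down the axon. Mitotic kinesins build the spindle, align chromosomes and organise the central spindle from which the cleavage furrow is placed, and many of their transcripts peak in G2 and M phase through promoters that hold a cell cycle homology region (CHR). Kinesin-1 is a tetramer of 2 Kif5 heavy chains and 2 light chains, and kinesin-2 a heterotrimer of 2 different Kif3 motors with the adaptor Kifap3.

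The libraries rested on totals of 38059492 to 44556768 reads in control and 21125631 to 26670978 in Al, so depth and group moved together. With reads thinned to the smallest library, 5 mitotic kinesins were called higher and 5 transport kinesins lower, beside 25.5% of all genes higher and 23.6% lower. Correlations of log2 values across genes were 0.975 to 0.992 within a group and 0.912 to 0.923 between groups. Of 9 neuronal markers, 7 had a mean under 0.1 FPKM (Map2, Rbfox3, Nefl, Nefm, Dcx, Snap25 and Gap43), with Tubb3 and Syp above it. The 9 summed to 5.40 to 5.78 FPKM in control and 2.91 to 4.24 in Al, with 1 at a mean of at least 1 FPKM. The 4 fibroblast markers summed to 2010 to 3193 FPKM in control and 2469 to 3451 in Al, nearly all of it Col1a1 and Col1a2. Of these 4, Col1a1 was called higher (log2 fold change 0.92), Pdgfra and Dcn were called lower (-1.22 and -1.64) and Col1a2 was not called. The 4 astrocyte markers summed to 13.9 to 23.0 FPKM in control and 1.51 to 2.61 in Al, nearly all of it Slc1a3, with Gfap and Aqp4 under 0.1. The 4 microglial markers summed to at most 1.35 FPKM and the 4 oligodendrocyte markers to at most 0.781 FPKM in any library, with Cx3cr1 called higher on 6 to 13 reads in control and 31 to 75 in Al. The part of these marker differences in the kinesin results was not tested.

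Relative to the bulk of genes, 5 of 12 mitotic kinesins were called higher under Al, whereas 5 of 11 transport kinesins and 4 of 4 light chains were called lower. A gene was called at a Benjamini-Hochberg adjusted p under 0.05 in limma's moderated test together with a log2 fold change beyond 0.58 in either direction, on FPKM (fragments per kilobase of transcript, scaled to library depth) divided by a size factor per library. In bulk RNA, fewer cells of a kind or phase and less RNA per cell cannot be told apart. Of the 37 kinesin symbols with a mean of at least 0.1 FPKM, 6 were called higher and 14 lower, against 25.5% and 23.7% of all 12889 genes tested. Among the 12 mitotic kinesins, 5 rose, 0 fell and 7 were not called by limma, and 0 also fell at an unadjusted p under 0.05 with the same fold or by voom on recovered reads. At the adjusted p alone 9 were higher and 2, Kif14 and Kif22, lower. Their median log2 fold change was 0.51, against 0.03 over all genes tested. Among the 11 transport kinesins tested, 1 rose, 5 fell and 5 were not called, with a median of -0.49. All 4 light chains were called lower, with a median of -1.19, although the call of Klc3 was lost in 14 of 19 alternative settings. Of 9 further kinesins tested, 5 were lower and 4 not called, with a median of -0.61. In scaled FPKM the Al libraries lay wholly above the control libraries for 9 mitotic kinesins and 1 transport kinesin, compared with 35.1% of all genes, and wholly below them for 2 mitotic kinesins, 7 transport kinesins and 4 light chains, compared with 33.1%.

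**Figure D1:**
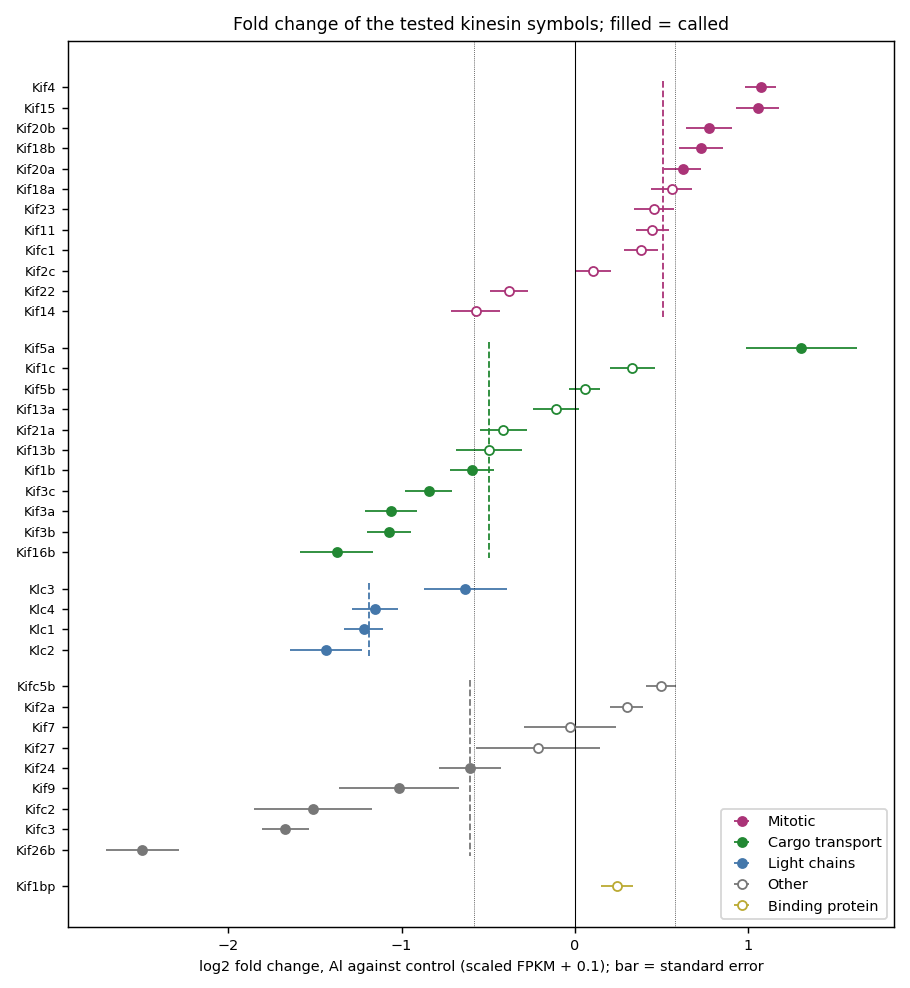
Log2 fold change of the 37 tested kinesin symbols, Al against control, with the standard error as bars, filled points for called genes, dotted lines at a log2 fold change of 0.58 in either direction and a dashed line at each class median. Mitotic kinesins span -0.57 to 1.07 around a median of 0.51, and the 4 light chains all lie between -1.44 and -0.63.

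These directions depend on the scaling between libraries. Without size factors the median of all genes was lower by 0.46 on the log2 scale, and the mitotic median was 0.03 while the transport median was -0.97. When every library was brought to one common sum (TPM) the median of all genes was lower by 0.75, the mitotic median turned to -0.27 and the transport median was -1.26. On deposited values 1 mitotic kinesin was called higher and 2 lower, and 8 of 11 transport kinesins were called lower, beside 13.5% of all genes called higher and 41.3% lower on that scale. The position of the mitotic class above the transport class held on every scale, with a difference between class medians of 1.004 with size factors and 0.65 under quantile normalization, the smallest of the settings tried.

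**Figure D2:**
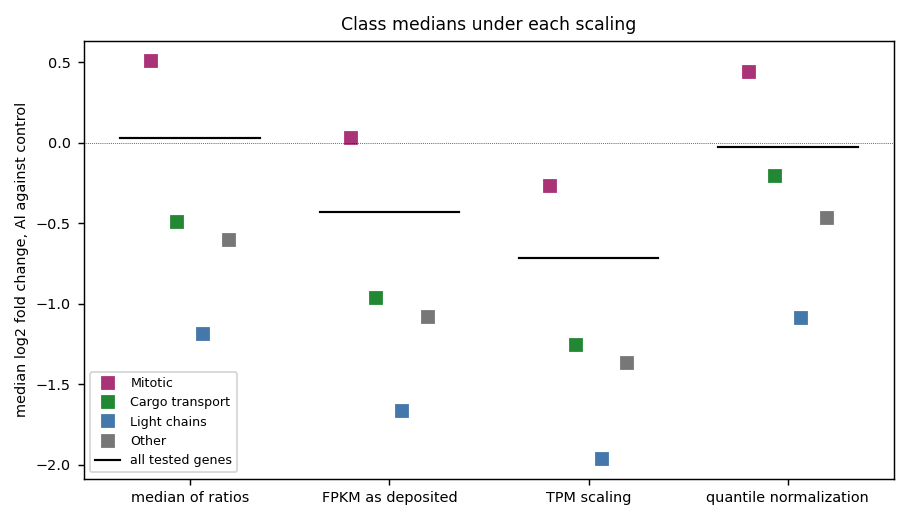
Median log2 fold change, Al against control, of 4 kinesin classes (squares) and of all tested genes (black lines) under 4 ways of scaling the libraries. The mitotic median moves from 0.51 with size factors to -0.27 with TPM, while it stays above the line of all genes and above the other 3 classes in each scaling.

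Ratios between kinesins of the same library need no such scaling. Summed over the class, the mitotic to transport ratio of FPKM was 1.40, 1.55 and 1.47 for control and 2.08, 2.06 and 2.28 for Al. The ratio thus rose from 1.47 ± 0.08 (SD, n = 3) to 2.14 ± 0.12 (SD, n = 3) without overlap, and an exact two-sided permutation test over 3 against 3 libraries cannot go below p = 0.1. On deposited values the mitotic sum overlapped between the groups, at 223 ± 11.2 FPKM in control and 217 ± 24.2 in Al (SD, n = 3 each). The transport sum lay wholly lower in Al, at 152 ± 1.90 FPKM in control and 101 ± 5.45 in Al (SD, n = 3 each). Over all member symbols except Kif1bp the sum was 509 ± 12.3 FPKM in control and 381 ± 38.3 in Al (SD, n = 3 each).

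**Figure D3:**
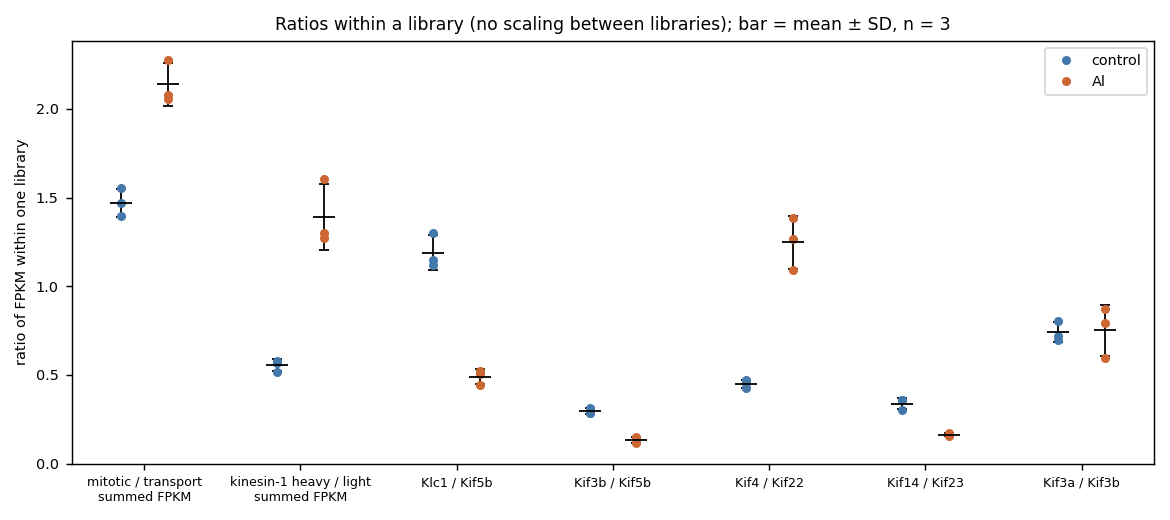
Ratios of FPKM within one library for 7 pairs of kinesins or kinesin sums, with points for the 3 control and 3 Al libraries and bars for the mean and SD. Kinesin-1 heavy to light chains lie at 0.518 to 0.5803 in control and 1.27 to 1.60 in Al, whereas Kif3a to Kif3b overlaps.

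Kif4 and Kif15 had the largest rises among the mitotic kinesins. Kif4 encodes the chromokinesin that coats chromosome arms and then works at the spindle midzone with Prc1. It measured 13.1, 14.6 and 14.4 FPKM in control and 20.01, 20.1 and 23.4 FPKM under Al. All Al values were above all control values before and after scaling, and the log2 fold change was 1.07 ± 0.09 (SE, adjusted p = 2.95e-05), or 2.10-fold. The gene, at chrX:100625737-100727214 on the plus strand of GRCm38, shares 15.1% of its exonic bases with Pdzd11 on the other strand, and since the strand setting of the counting is not given, reads of the pair cannot be told apart. Kif15, a spindle motor that helps to keep the poles apart beside Kif11, measured 7.81, 8.998 and 8.09 FPKM in control and 10.3, 11.8 and 15.6 FPKM under Al. The groups did not overlap on either scale and the gene rose with a log2 fold change of 1.06 ± 0.12 (SE, adjusted p = 0.000143). With TPM scaling the values were 0.29 for Kif4 and 0.28 for Kif15 and neither was called, and on deposited FPKM Kif4 was called at 0.59 whereas Kif15 was not at 0.57.

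Kif20b, Kif20a and Kif18b were the other mitotic kinesins called higher. Kif20b, which acts at the midbody, measured 10.2, 13.6 and 11.3 FPKM in control and 13.5, 12.3 and 17.4 FPKM under Al. The groups overlapped as deposited and separated after scaling, where the log2 fold change was 0.77 ± 0.13 (SE, adjusted p = 0.00101). Kif20a, the midzone motor that carries the Aurora B complex, measured 9.87, 9.68 and 9.34 FPKM in control and 10.7, 10.7 and 10.5 FPKM under Al. All Al values lay above control on both scales, with a log2 fold change of 0.62 ± 0.11 (SE, adjusted p = 0.0011); 29.3% of its exonic bases are shared with Cdc23 on the other strand. Kif18b, which shortens astral microtubules, measured 24.3, 26.8 and 28.6 FPKM in control and 34.8, 26.5 and 33.5 FPKM under Al. Its groups overlapped as deposited and not after scaling, and it rose with a log2 fold change of 0.73 ± 0.13 (SE, adjusted p = 0.00114). With TPM scaling the log2 fold changes of Kif20b, Kif20a and Kif18b turned to -0.01, -0.16 and -0.06, and on deposited FPKM they were 0.29, 0.14 and 0.24 with none called. The call of Kif18b was also lost under quantile normalization, at 0.51, and that of Kif20a with a pseudocount of 1.

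**Figure D4:**
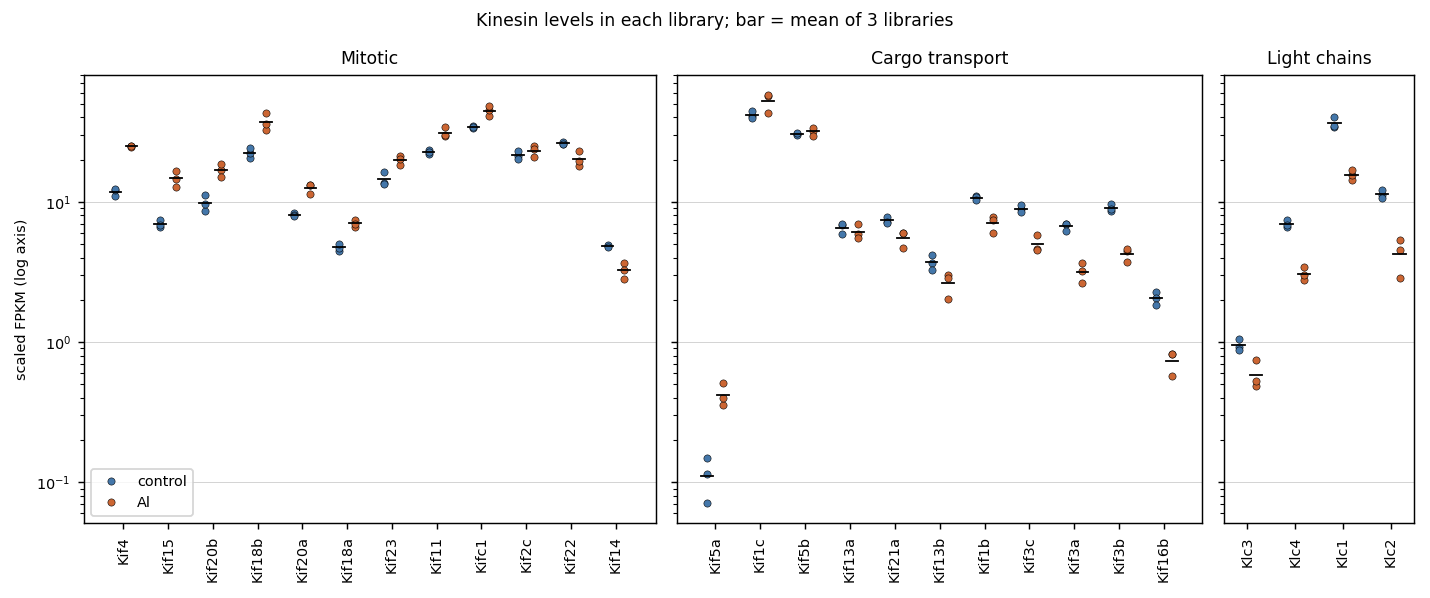
Scaled FPKM (log axis) of each tested mitotic kinesin, transport kinesin and light chain in the 3 control and 3 Al libraries, with bars for the means and genes ordered by fold change in each panel. The groups separate upward from Kif4 to Kifc1 and downward in Kif22, Kif14, 7 transport kinesins and all 4 light chains.

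Kif18a, Kif23, Kif11, Kifc1 and Kif2c were not called. Kif18a, which dampens chromosome movements at the metaphase plate, measured 5.30, 5.70 and 5.91 FPKM in control and 5.97, 5.43 and 6.52 FPKM under Al, with a log2 fold change of 0.56 ± 0.12 (SE, adjusted p = 0.00308). Kif23, the motor subunit of centralspindlin, measured 16.1, 19.9 and 15.6 FPKM in control and 16.9, 14.8 and 18.8 FPKM under Al, with a log2 fold change of 0.46 ± 0.12 (SE, adjusted p = 0.00799). Kif11, the tetrameric motor that slides spindle poles apart, measured 26.1, 28.4 and 26.7 FPKM in control and 27.3, 24.04 and 27.9 FPKM under Al, with a log2 fold change of 0.45 ± 0.10 (SE, adjusted p = 0.0035). These 3 genes passed the adjusted p and missed the fold of 0.58, and as deposited their groups overlapped. Kif18a was called higher under quantile normalization (0.79), without control replicate 3 and without Al replicate 2, and turned to -0.21 with TPM scaling. The log2 fold changes of Kif23, Kif11 and Kifc1 turned negative on deposited FPKM and with TPM scaling. Kifc1, a minus-end motor that focuses spindle poles, measured 39.7, 42.1 and 39.98 FPKM in control and 32.7, 36.7 and 44.9 FPKM under Al, with a log2 fold change of 0.38 ± 0.10 (SE, adjusted p = 0.0079). Kifc1 and Kifc5b are 98.2% identical over the whole coding sequence of Kifc1, so their FPKM depend on how reads were shared between the copies. Kifc5b gave 0.50 ± 0.09 (SE, adjusted p = 0.00124), and the ratio of Kifc1 to Kifc5b was 1.84 ± 0.03 in control and 1.70 ± 0.08 in Al (SD, n = 3 each), without overlap. Kif2c, the centromeric depolymerase that corrects wrong attachments, measured 25.1, 27.9 and 23.7 FPKM in control and 16.8, 20.2 and 22.1 FPKM under Al. Its groups overlapped after scaling (log2 fold change 0.10 ± 0.11, SE, adjusted p = 0.406) and lay lower in Al as deposited (-0.38, not called). Coding sequences of Kif11 and Kif2c also match an annotated pseudogene and an annotated lincRNA, respectively, at 90.6% and 92.1% identity over 52.9% and 55.5% of their length.

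Kif14 and Kif22 went against the rest of the mitotic class. Kif14, a cytokinesis motor that recruits citron kinase to the midbody, measured 5.76, 5.98 and 5.58 FPKM in control and 2.92, 2.30 and 3.06 FPKM under Al. All Al values were below all control values on both scales, and the log2 fold change of -0.57 ± 0.14 (SE, adjusted p = 0.0068) was just short of the fold threshold, and it was past it in 6 of 20 alternative settings, at -1.05 on deposited FPKM. Kif22, a chromokinesin with a DNA-binding domain, measured 30.7, 32.1 and 30.4 FPKM in control and 14.4, 15.9 and 21.5 FPKM under Al, again wholly lower in Al on both scales, with a log2 fold change of -0.38 ± 0.11 (SE, adjusted p = 0.0153) that was not called. Kif22 was called lower on deposited FPKM at -0.86 and with TPM scaling at -1.16. The order within the class therefore changed. In control libraries Kif22 was the second most abundant mitotic kinesin at 31.1 ± 0.91 FPKM and Kif4 the seventh at 14.0 ± 0.78, whereas in Al libraries Kif4 was at 21.2 ± 1.93 and Kif22 at 17.3 ± 3.72, where their ranges overlap (SD, n = 3 each). Within a library the ratio of Kif4 to Kif22 was 0.428 to 0.473 in control and 1.09 to 1.39 in Al, and that of Kif14 to Kif23 was 0.301 to 0.359 in control and 0.155 to 0.172 in Al. Kifc1 had the highest mean of the class in both groups, at 40.6 ± 1.31 and 38.1 ± 6.25 FPKM (SD, n = 3 each); in the Al libraries its range overlaps that of Kif18b (26.5 to 34.8 FPKM). Kif18a and Kif14 shared the lowest place in control with overlapping ranges, and in Al Kif14 stood alone at 2.76 ± 0.40 FPKM below Kif18a at 5.97 ± 0.54.

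The CHR element marks many promoters of genes that peak in G2 and M phase, so the promoter windows of the members were searched. RefSeq promoters (GRCm38.p6, 250 bases before to 50 bases after the annotated start) were in the table for 36 of the 46 symbols. The CHR was searched as TTTGAA or TTCGAA, the CCAAT box as CCAAT and an E2F element as TTTGGCGC or TTTCGCGC, each on both strands, a match on the other strand appearing as the reverse complement. A CHR was found in 10 of 11 mitotic kinesins, 1 of 10 transport kinesins, 0 of 3 light chains and 4 of 12 further kinesins, against 16.6% of the 9785 tested genes with a promoter and 19.2% of all 32851 promoters in the table. The transport match was in the second of 2 windows of Kif1a, a gene with too little expression to test. In 8 of the 10 mitotic kinesins a match began between 19 bases before and 19 bases after the start, while Kif14 and Kif2c had theirs at positions -228 and -103. The span was set by the outermost of these matches, and the share of all promoters with a match in it was not computed. Outside the mitotic class, Kif26b also had its match in this span. CCAAT boxes were in 7 of 11 mitotic kinesins, 3 of 10 transport kinesins, 2 of 3 light chains and 6 of 12 further kinesins, against 43.3% of tested genes with a promoter and 37.4% of all promoters. An E2F element was in 2 of 11 mitotic kinesins, Kif15 and Kif18a, in 0 of the other 25 members with a promoter, and in 1.77% of tested genes with a promoter and 0.813% of all promoters. Kif22, which lay lower in Al, and Kif4, which rose, both hold a CHR and a CCAAT box. So do Kif26b and Kif24, which were called lower, with the CHR at positions -9 and -26. The further kinesins with a CHR also include Kif27 and Kifc5b, which were not called. A match describes letters in a window and says nothing of binding.

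**Figure D5:**
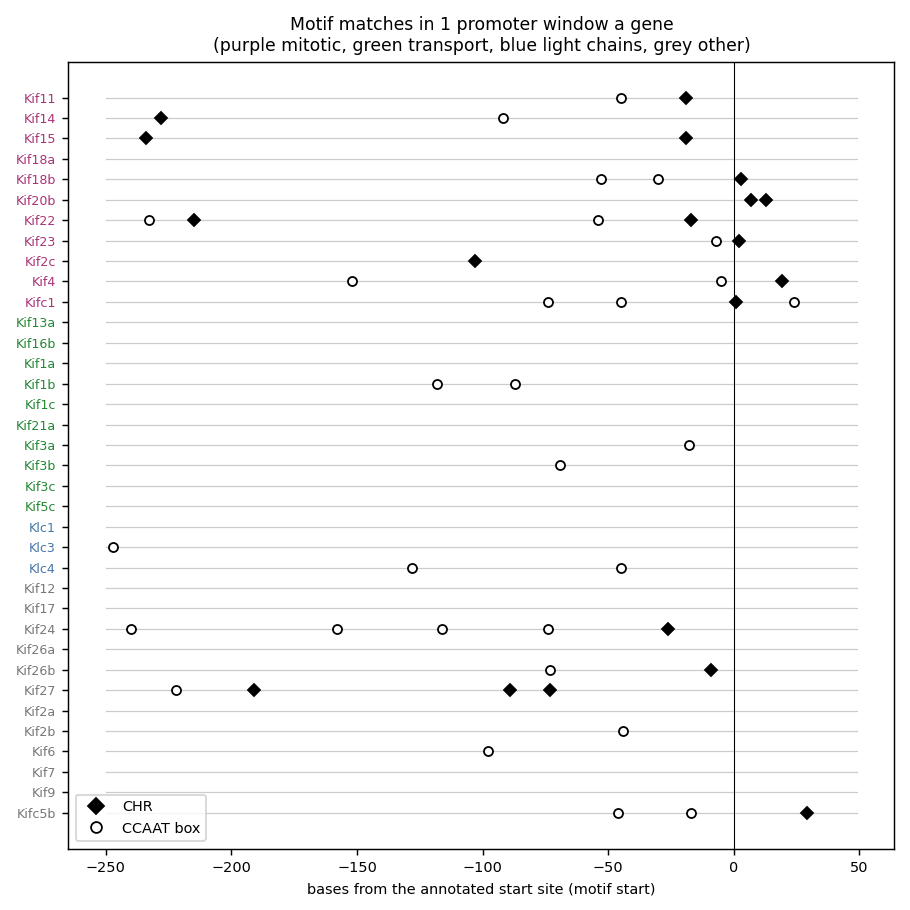
Positions of CHR matches (filled diamonds) and CCAAT boxes (open circles) relative to the annotated start in the first listed promoter window of 36 kinesin symbols, with E2F elements not drawn. Filled diamonds occur in 10 of 11 mitotic rows and 4 of 12 rows of further kinesins. They occur in none of the transport or light chain rows, where the second window of Kif1a is not drawn.

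The promoters of the 2 mitotic kinesins with the largest rises, of Kif22, and of Kif3b and Klc1 as members with lower levels and without a CHR, show these matches in capitals on the gene's own strand. Kif4 spans chrX:100625815-100626114 (plus strand), Kif15 chr9:122950831-122951130 (plus strand), Kif22 chr7:127042371-127042670 (minus strand), Kif3b chr2:153291166-153291465 (plus strand) and Klc1 chr12:111758618-111758917 (plus strand). In Kif15 the E2F element begins at position -27 and abuts the CHR that begins at position -19, both on the other strand, so that the capitals run on. Kif4 has CCAAT boxes at positions -152 and -5 and its CHR at position 19, where 0 is the annotated start. Klc1 has no match to any of the 3 motifs.
Kif4: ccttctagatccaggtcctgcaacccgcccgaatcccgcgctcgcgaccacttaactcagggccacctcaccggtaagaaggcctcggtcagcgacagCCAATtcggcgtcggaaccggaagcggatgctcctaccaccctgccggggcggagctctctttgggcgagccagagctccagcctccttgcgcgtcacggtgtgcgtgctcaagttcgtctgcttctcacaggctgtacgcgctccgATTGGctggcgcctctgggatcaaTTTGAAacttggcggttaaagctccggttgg
Kif15: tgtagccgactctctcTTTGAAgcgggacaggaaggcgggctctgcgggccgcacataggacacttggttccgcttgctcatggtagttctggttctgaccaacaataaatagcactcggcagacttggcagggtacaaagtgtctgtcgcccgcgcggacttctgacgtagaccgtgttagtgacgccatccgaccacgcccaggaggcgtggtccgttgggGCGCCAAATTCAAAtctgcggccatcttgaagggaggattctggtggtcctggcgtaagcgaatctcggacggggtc
Kif22: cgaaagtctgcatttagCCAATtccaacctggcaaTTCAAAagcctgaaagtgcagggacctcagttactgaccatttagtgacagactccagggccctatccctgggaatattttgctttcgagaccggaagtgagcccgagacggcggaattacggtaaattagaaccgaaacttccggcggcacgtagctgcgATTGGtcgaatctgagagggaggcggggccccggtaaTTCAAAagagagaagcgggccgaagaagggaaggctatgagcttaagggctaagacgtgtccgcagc
Kif3b: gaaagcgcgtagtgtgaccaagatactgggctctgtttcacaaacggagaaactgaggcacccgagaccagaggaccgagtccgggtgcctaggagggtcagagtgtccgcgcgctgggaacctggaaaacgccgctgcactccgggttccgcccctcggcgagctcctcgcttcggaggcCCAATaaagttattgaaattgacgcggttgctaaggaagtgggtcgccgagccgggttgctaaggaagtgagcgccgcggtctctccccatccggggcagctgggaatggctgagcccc
Klc1: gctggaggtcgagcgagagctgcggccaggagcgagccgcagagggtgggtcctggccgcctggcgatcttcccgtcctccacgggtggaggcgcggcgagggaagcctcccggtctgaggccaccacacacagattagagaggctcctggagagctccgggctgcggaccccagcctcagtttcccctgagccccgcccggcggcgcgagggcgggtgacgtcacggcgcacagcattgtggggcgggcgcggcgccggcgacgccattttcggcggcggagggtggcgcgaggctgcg

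The partners of these motors in mitosis were counted in the same way. Of 20 genes listed for the spindle, the centralspindlin and passenger complexes and the kinases that drive mitosis, 20 were tested, 7 rose, 0 fell and 13 were not called by limma, with a median log2 fold change of 0.34, and 0 fell also at an unadjusted p under 0.05 or by voom. At the adjusted p alone 11 were higher and 3, Numa1, Ect2 and Racgap1, lower. The 7 are 35% of the list, beside 25.5% of all genes called higher. On deposited FPKM this median was -0.15, with 1 gene called higher and 3 lower, beside 13.5% and 41.3% of all genes, and with TPM scaling 0 were called higher and 7 lower, beside 8.85% and 52.2%. Aurka, the spindle pole kinase, measured 32.8, 32.9 and 31.3 FPKM in control and 57.9, 50.2 and 50.4 FPKM under Al (log2 fold change 1.19 ± 0.12, SE, adjusted p = 5.74e-05). Cdk1, the kinase that triggers mitosis, measured 30.04, 34.1 and 31.3 FPKM in control and 44.9, 47.2 and 43.5 FPKM under Al (log2 fold change 0.99 ± 0.11, SE, adjusted p = 0.000105). Cdca8, borealin of the passenger complex, measured 56.04, 68.2 and 61.8 FPKM in control and 85.9, 77.9 and 89.4 FPKM under Al (log2 fold change 0.93 ± 0.11, SE, adjusted p = 0.00013). In these 3 genes every Al value lay above every control value as deposited and after scaling. On deposited FPKM Aurka was called, at 0.70, whereas Cdk1 at 0.51 and Cdca8 at 0.45 were not. With TPM scaling Aurka, Cdk1 and Cdca8 were at 0.40, 0.21 and 0.15 and none was called. Cdca8 was also not called under quantile normalization, at 0.44.

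Ratios of motors to their direct partners differed between the groups. Tpx2, which loads Kif11 on the spindle, rose by 0.76 ± 0.11 (SE, adjusted p = 0.000442), from 41.5, 45.4 and 44.2 to 56.3, 50.3 and 51.6 FPKM. Tpx2 was not called on deposited FPKM (0.27) or under quantile normalization (0.39) and turned to -0.03 with TPM scaling. The ratio of Kif11 to Tpx2 was 0.620 ± 0.014 in control and 0.501 ± 0.033 in Al (SD, n = 3 each). Prc1, the midzone bundler that recruits Kif4, measured 39.4, 44.9 and 40.4 FPKM in control and 32.1, 32.7 and 37.1 FPKM under Al and was not called (0.20 ± 0.09, SE, adjusted p = 0.0843), so that Kif4 per Prc1 was 0.325 to 0.356 in control and 0.615 to 0.631 in Al. Racgap1, the partner of Kif23 in centralspindlin, measured 68.7, 70.6 and 68.9 FPKM in control and 37.02, 40.6 and 48.5 FPKM under Al with a log2 fold change of -0.24 ± 0.09 (SE, adjusted p = 0.0445), not called. Racgap1 was called lower on deposited FPKM (-0.73), with TPM scaling (-1.03) and under quantile normalization (-0.65). Kif23 per Racgap1 was 0.247 ± 0.030 in control and 0.404 ± 0.047 in Al (SD, n = 3 each). The groups did not overlap in any of these 3 ratios. Cenpe, the kinetochore kinesin whose symbol does not follow the family's pattern, measured 15.2, 17.9 and 15.97 FPKM in control and 12.6, 10.01 and 13.3 FPKM under Al, overlapping after scaling with a log2 fold change of 0.03 ± 0.12 (SE, adjusted p = 0.831).

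All 3 kinesin-2 motor genes of the transport class fell. The subunits carry intraflagellar trains along the cilium and vesicles in the axon. Kif3a measured 8.21, 8.38 and 7.30 FPKM in control and 2.58, 2.16 and 3.41 FPKM under Al. Kif3b measured 11.4, 10.4 and 10.4 FPKM in control and 2.96, 3.63 and 4.31 FPKM under Al. Kif3c, an alternative partner of Kif3a, measured 10.6, 11.4 and 9.92 FPKM in control and 3.67, 3.67 and 5.44 FPKM under Al. In each gene all Al values lay below all control values on both scales, and the log2 fold changes were -1.06 ± 0.15, -1.07 ± 0.13 and -0.84 ± 0.14 (SE, adjusted p = 0.000375, 0.000156 and 0.000738). Kifap3, the non-motor adaptor of the same complex, measured 15.8, 14.9 and 13.3 FPKM in control and 4.18, 4.20 and 6.33 FPKM under Al and fell with a log2 fold change of -1.10 ± 0.14 (SE, adjusted p = 0.000196). The proportions inside the complex overlapped between groups, with Kif3a per Kif3b at 0.742 ± 0.057 in control and 0.753 ± 0.143 in Al and Kif3a per Kifap3 at 0.544 ± 0.022 and 0.557 ± 0.054 (SD, n = 3 each). The calls of Kif3a and Kif3b held in all 20 alternative settings and that of Kif3c in 19, being lost at a log2 fold change over 1. An antisense gene, 1110002L01Rik, overlaps 35.3% of the exonic bases of Kif3c.

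In kinesin-1 the heavy and light chains parted. Kif5b, the heavy chain found in most cells, measured 36.1, 36.5 and 36.5 FPKM in control and 25.9, 24.1 and 31.4 FPKM under Al. Its values overlapped after scaling, with a log2 fold change of 0.06 ± 0.09 (SE, adjusted p = 0.607), and were wholly lower in Al as deposited (-0.43, not called). With TPM scaling Kif5b was called lower, at -0.73. Kif5b made up 99.3 ± 0.28% of the Kif5 FPKM in control and 98.5 ± 0.19% in Al (SD, n = 3 each). Kif5a, a neuronal heavy chain, rose from 0.135, 0.181 and 0.0833 FPKM to 0.284, 0.418 and 0.372, a log2 fold change of 1.31 ± 0.32 (SE, adjusted p = 0.00679) that rests on 26 to 55 reads per control library and 53 to 64 per Al library. Kif5c, the other neuronal heavy chain, was below the level tested.

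All 4 light chains, which bind cargo for kinesin-1, were lower. Klc1, the most abundant of them (chr12:111758849-111807844, plus strand, GRCm38), measured 40.4, 41.8 and 47.5 FPKM in control and 11.4, 12.6 and 15.9 FPKM under Al. Every Al value was below every control value, and the log2 fold change was -1.22 ± 0.11 (SE, adjusted p = 3.97e-05), a level 2.33-fold lower. Klc2 measured 13.3, 12.8 and 14.2 FPKM in control and 2.30, 3.67 and 4.98 FPKM under Al, with a log2 fold change of -1.44 ± 0.21 (SE, adjusted p = 0.000431). Klc4 measured 7.83, 8.92 and 8.01 FPKM in control and 2.24, 2.44 and 3.19 FPKM under Al, with a log2 fold change of -1.15 ± 0.13 (SE, adjusted p = 0.000124). The groups were apart on both scales in these 3 genes and their calls held in all 20 alternative settings. Klc3, at 1.25, 1.12 and 1.02 FPKM in control and 0.389, 0.604 and 0.491 FPKM under Al, shares 28.1% of its exonic bases with Ercc2 on the other strand, and its log2 fold change of -0.63 ± 0.24 (SE, adjusted p = 0.046) was no longer called without any one of control replicates 1, 2 or 3 or Al replicates 1 or 3. Klc1 made up 65.4 ± 1.53% of light chain FPKM in control and 66.6 ± 2.84% in Al (SD, n = 3 each), overlapping between groups. The ratio of summed heavy to summed light chain FPKM was 0.5803, 0.569 and 0.518 in control and 1.60, 1.27 and 1.30 in Al, that is 0.556 ± 0.033 against 1.39 ± 0.184 (SD, n = 3 each) with no overlap.

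Among the kinesin-3 motors of endosomes and vesicles, Kif16b and Kif1b were called lower, and Kif13a, Kif13b and Kif1c were not called, nor was the kinesin-4 Kif21a. Kif16b, which carries early endosomes, measured 2.67, 2.50 and 2.16 FPKM in control and 0.460, 0.667 and 0.766 FPKM under Al and fell with a log2 fold change of -1.37 ± 0.21 (SE, adjusted p = 0.000595), a call that held in all 20 alternative settings. Kif1b, a motor of mitochondria and synaptic vesicle precursors, measured 13.02, 12.99 and 12.02 FPKM in control and 6.23, 4.90 and 6.93 FPKM under Al, with all Al values the lower ones. Its log2 fold change of -0.59 ± 0.12 (SE, adjusted p = 0.00321) was close to the threshold and the call was lost in 5 settings, among them without Al replicate 2. Kif13b, which carries vesicles toward the cell edge, measured 4.96, 4.45 and 3.82 FPKM in control and 1.62, 2.46 and 2.66 FPKM under Al (log2 fold change -0.49 ± 0.19, SE, adjusted p = 0.0483). Kif21a measured 9.28, 8.67 and 8.30 FPKM in control and 4.81, 3.81 and 5.54 FPKM under Al (log2 fold change -0.41 ± 0.13, SE, adjusted p = 0.0256). Both were wholly lower in Al on either scale and did not reach the fold threshold on scaled FPKM, which Kif13b passed without Al replicate 2. On deposited FPKM, Kif13b at -0.97 and Kif21a at -0.89 were called lower, and with TPM scaling at -1.26 and -1.19. Kif13a, a motor of recycling endosomes, measured 8.09, 8.36 and 6.94 FPKM in control and 4.74, 4.47 and 6.43 FPKM under Al and overlapped after scaling, with a log2 fold change of -0.11 ± 0.13 (SE, adjusted p = 0.507) that turned to 0.10 under quantile normalization. Its Al values were wholly below control as deposited, where it was called lower at -0.59, as it was with TPM scaling at -0.88. Kif1c, a vesicle motor of many tissues and the most abundant transport kinesin in both groups, measured 48.7, 47.6 and 52.1 FPKM in control and 45.9, 47.2 and 40.3 FPKM under Al. It overlapped after scaling with a log2 fold change of 0.33 ± 0.13 (SE, adjusted p = 0.0525) and was wholly lower as deposited (-0.16).

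The 3 transport kinesins that were not tested are all known from neurons. Kif1a, the axonal motor of synaptic vesicle precursors, had at most 11 reads in a library. Kif5c had 25, 21 and 10 reads in control and 7, 1 and 8 under Al, with a mean just under the 0.1 FPKM needed. Kif21b had 48, 73 and 34 reads in control and 9, 7 and 6 under Al, and without the filter on low values it was called lower, at a log2 fold change of -0.58 ± 0.19 (SE, adjusted p = 0.0433). A library with 0 reads still allows a mean of 3, by counting error only.

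Outside both classes, the largest decrease of the superfamily was that of Kif26b. Kif26b, an unconventional kinesin that signals at the cell cortex, measured 9.40, 8.42 and 7.0 FPKM in control and 1.22, 0.887 and 0.834 FPKM under Al. The log2 fold change was -2.50 ± 0.21 (SE, adjusted p = 2.88e-05), 5.64-fold lower in Al, and 0.528% of tested genes had a lower one. Kifc3, a minus-end motor of cell junctions and the Golgi, measured 17.2, 18.96 and 16.4 FPKM in control and 3.30, 4.47 and 3.90 FPKM under Al (log2 fold change -1.67 ± 0.14, SE, adjusted p = 2.57e-05). Kif24, a centriolar kinesin that represses cilium formation, measured 5.55, 5.50 and 4.99 FPKM in control and 1.94, 2.22 and 3.51 FPKM under Al (log2 fold change -0.61 ± 0.18, SE, adjusted p = 0.0166), a call lost in 8 of 20 settings, among them without control replicate 1 or 2 or Al replicate 1 or 2. The groups did not overlap in these 3 genes on either scale. Kifc2 and Kif9, with means under 1 FPKM, were also called lower, on 3 to 11 and 5 to 11 reads per Al library, and the call of Kif9 was lost in 5 of 19 settings, among them without control replicate 1, control replicate 2 or Al replicate 3. Kif2a, Kifc5b, Kif7 and Kif27 were not called, and Kif7 was spread widely within the Al group, at 1.40, 2.08 and 3.62 FPKM under Al. Kif2b, Kif6, Kif12, Kif17, Kif19a and Kif26a were not tested and had at most 14 reads in a library. Kif1bp, the binding protein that keeps some motors off microtubules, measured 19.98, 21.6 and 20.1 FPKM in control and 17.5, 16.6 and 18.1 FPKM under Al, which was above control after scaling (0.24 ± 0.09, SE, adjusted p = 0.0459, not called) and below it as deposited (-0.24).

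The place of the motor domain is a sequence feature that the choice of members did not use. The nucleotide-binding P-loop was found once in 39 of the 46 longest annotated proteins. It began at residue 85 of 963 in Kif5b and at residue 88 of 1231 in Kif4, near the amino end as in most plus-end motors. It lay at residue 344 of 721 in Kif2c, in the middle as is known of depolymerases, and at residue 411 of 674 in Kifc1 and 526 of 824 in Kifc3, toward the carboxyl end as in minus-end motors. No P-loop was found in Klc1, Klc2, Klc3, Klc4 or Kif1bp, nor in Kif26a and Kif26b, which are known to lack ATPase activity.

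Adaptors that link kinesins to cargo were counted next. Of 23 listed, 20 were tested, 2 rose, 6 fell and 12 were not called, with a median of -0.15 (-0.64 on deposited FPKM). These are 10% higher and 30% lower, beside 25.5% and 23.7% of all genes tested. Mapk8ip3 (JIP3), an adaptor between kinesin-1 and vesicles, measured 16.9, 15.2 and 14.4 FPKM in control and 35.6, 34.8 and 45.6 FPKM under Al and rose with a log2 fold change of 1.79 ± 0.10 (SE, adjusted p = 7.34e-06). Fyco1, which couples autophagosomes and late endosomes to kinesin-1, measured 4.96, 4.59 and 4.69 FPKM in control and 0.622, 0.732 and 0.945 FPKM under Al and fell with a log2 fold change of -2.05 ± 0.17 (SE, adjusted p = 2.71e-05). Madd, an adaptor of the kinesin-3 motors Kif1a and Kif1b, measured 7.34, 6.50 and 6.97 FPKM in control and 1.91, 1.64 and 2.42 FPKM under Al (log2 fold change -1.29 ± 0.15, SE, adjusted p = 0.000122). In these 3 genes the groups were apart on both scales. The other rise was Clstn1, a cargo receptor of kinesin-1 light chains named after its values were seen, at 107, 103 and 102 FPKM in control and 117, 126 and 113 FPKM under Al (log2 fold change 0.68 ± 0.12, SE, adjusted p = 0.00131), which was not called on deposited FPKM (0.19) or under quantile normalization (0.07) and turned to -0.11 with TPM scaling. Trak1, which ties mitochondria to Kif5 motors, measured 11.6, 11.3 and 11.9 FPKM in control and 9.13, 8.87 and 11.9 FPKM under Al and was not called (0.25 ± 0.11, SE, adjusted p = 0.0632).

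Dynein and dynactin, which carry cargo toward microtubule minus ends, were set beside the plus-end motors. Of 27 listed genes, 23 were tested, 1 rose, 8 fell and 14 were not called, with a median of -0.30. The 8 are 34.8% of the list, beside 23.7% of all genes called lower, and 16 and 19 were called lower on deposited FPKM and with TPM scaling, where 41.3% and 52.2% of all genes were. Dctn6, a pointed-end subunit of dynactin, measured 7.32, 9.54 and 8.48 FPKM in control and 1.56, 1.69 and 2.89 FPKM under Al (log2 fold change -1.56 ± 0.20, SE, adjusted p = 0.000188). Dctn2, the dynamitin subunit, measured 82.7, 89.2 and 81.1 FPKM in control and 24.2, 25.7 and 30.02 FPKM under Al (log2 fold change -1.18 ± 0.09, SE, adjusted p = 1.82e-05). Hook3, an activating adaptor, measured 3.79, 3.81 and 3.60 FPKM in control and 0.808, 1.12 and 1.93 FPKM under Al (log2 fold change -1.09 ± 0.24, SE, adjusted p = 0.00425). All Al values of these 3 genes lay below all control values. The single rise was Bicd2, an adaptor of dynein, chosen for naming after its values were seen, at 21.6, 20.96 and 20.3 FPKM in control and 33.2, 29.04 and 27.1 FPKM under Al (log2 fold change 0.99 ± 0.13, SE, adjusted p = 0.000269), which was not called on deposited FPKM (0.50) or with TPM scaling (0.20).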

How the data were processed

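HT22 input RNA was sequenced in 6 libraries, 3 per group, with a kit that keeps strand. The authors deposited FPKM for each symbol in each library and scaled no further. The study's methods name Trimmomatic, SortMeRNA and HISAT2 with GRCm38/mm10, the submitters' processing notes name fastp, HISAT2, HTSeq and GRCm39, the series' design text names a further genome, and the counting's strand setting and annotation are not given in the sources used here. Which build lies behind the values is therefore open, and genes were matched by symbol only. The immunoprecipitated libraries were not analysed here.

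FPKM were divided by size factors (medians of ratios over genes above 0 in every library with a mean of at least 1 FPKM), and log2(FPKM + 0.1) of the 12889 genes with a mean of at least 0.1 FPKM was tested with limma 3.58.1 in R 4.3.3 (lmFit, eBayes with trend, two-sided, Benjamini-Hochberg over all genes tested). Fold changes are on this scale and understate low genes. FPKM steps gave whole reads for 17684 of 17688 genes above 0 (tolerance 0.001). Limits read from counts cover counting error only. The test was checked on simulated data. The members, classes, partner lists and naming rule were chosen with earlier results of these data known. Values are given for each mitotic or transport member with a mean of at least 1 FPKM, for other called members at that level, for the 3 called genes of largest change in each partner list and for Kifap3, Kif1bp, Cenpe, Prc1, Racgap1, Tpx2 and Trak1. All 46 symbols were matched to GENCODE vM21 (GRCm38) for gene positions, overlaps and near copies (BLAST+ 2.17.0, at least 90% identity over 300 bases). P-loop positions come from translations of its longest coding transcripts, in place of the RefSeq proteins that had been planned. Alternatives were other scalings, pseudocounts, filters, thresholds, thinned or recovered reads, a GC and length correction and each library left out.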

Additional observations from a re-analysis of the deposited data

How the results depend on the processing

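The calls of Kif3a, Kif3b, Kif16b, Klc1, Klc2, Klc4, Kif26b and Kifc3 held in all 20 alternative settings. On deposited FPKM, 1736 genes were called higher and 5321 lower. Mitotic kinesins then had 1 higher, 2 lower and a median of 0.027, transport kinesins 8 lower and -0.97, light chains a median of -1.67 and further kinesins -1.08. The adaptors had 1 higher, 10 lower and -0.64, mitotic partners 1 higher, 3 lower and -0.15, and dynein and dynactin 0 higher, 16 lower and -0.79. Log2 fold changes turned to -0.038 for Kif11, -0.24 for Kif1bp, -0.16 for Kif1c, -0.026 for Kif23, -0.18 for Kif2a, -0.38 for Kif2c, -0.43 for Kif5b and -0.10 for Kifc1. With TPM scaling, 1141 genes were called higher and 6734 lower, with mitotic kinesins at 0 higher, 3 lower and -0.27, transport kinesins at 0 higher, 9 lower and -1.26, light chains at -1.96 and further kinesins at -1.37. Adaptors were at 1 higher, 14 lower and -0.94, mitotic partners at 0 higher, 7 lower and -0.44, and dynein and dynactin at 0 higher, 19 lower and -1.09. Here log2 fold changes turned to -0.34 for Kif11, -0.21 for Kif18a, -0.057 for Kif18b, -0.54 for Kif1bp, -0.45 for Kif1c, -0.16 for Kif20a, -0.0064 for Kif20b, -0.32 for Kif23, -0.48 for Kif2a, -0.68 for Kif2c, -0.73 for Kif5b, -0.40 for Kifc1 and -0.29 for Kifc5b. Both settings take out the size factors, which shift all genes of a library alike before the pseudocount is added.

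Quantile normalization called 21.5% of all genes higher and 23.3% lower. It gave 1 adaptor higher, a dynein and dynactin median of -0.47, 3 mitotic partners higher and 2 lower with a median of 0.16, a transport median of -0.21 and a mitotic minus transport difference of 0.65. Its 5 mitotic kinesins called higher include Kif18a and leave out Kif18b. It turned Kif13a to 0.10, Kif1c to -0.0458, Kif2c to -0.0456, Kif5b to -0.18 and Kif7 to 0.30. With the GC and length trend removed, the difference was 0.81, the transport median -0.33 and the mitotic partner median 0.36, and Kif13a turned to 0.13 and Kif7 to 0.30. The cause was not tested. At a log2 fold change over 1, 2028 genes were higher and 1784 lower, with 2 mitotic kinesins higher, 3 transport kinesins lower, 1 adaptor and 1 mitotic partner higher, and 0 dynein and dynactin genes higher and 3 lower. A mean of at least 1 FPKM left 3 further kinesins lower and 0 transport kinesins higher, against 25.7% of 10349 genes tested called higher and 25.9% lower, and without a filter the median of further kinesins was -0.093. A pseudocount of 1 gave a difference of 0.84, 2 further kinesins lower and 0 transport kinesins higher, against 18.7% of all genes lower and 21% higher. One of 0.01 gave 1 mitotic kinesin lower, Kif14, against 23.7% of all genes.

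Leaving out each library in turn gave 0 to 1 mitotic kinesins called lower, 3 to 5 further kinesins lower, 1 to 2 dynein and dynactin genes higher and a mitotic partner median of 0.32 to 0.35. Mitotic kinesins called higher numbered 5 to 6 and transport kinesins called lower 5 throughout, against 23.4% to 26.7% of all genes called higher and 21.5% to 25.1% lower. Kif7 ranged from -0.30 to 0.25, at 0.038 without control replicate 1 and 0.25 without Al replicate 1. Kif14 was called without control replicate 1, control replicate 3 or Al replicate 1. Correlations between deviations of control and Al libraries ran from -0.07 to 0.08. They cannot tell whether same-numbered libraries were prepared as pairs, which the labels do not give. With the replicate block, 3248 genes were called higher and 3007 lower, 5 mitotic kinesins higher, 5 transport kinesins lower, 3 light chains lower (Klc3 lost) and 4 further kinesins lower (Kif9 lost). The 9 kinesins with a mean under 0.1 FPKM were not tested. Without that filter 6 transport kinesins were called lower, Kif21b added, against 16.7% of 17688 genes called lower and 18.9% higher.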
